A study of Mus musculus with 3 samples.

Results

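The genes described are the kinases and phosphatases that act directly on or after the lipid product of phosphoinositide 3-kinase (PI3K), with the FOXO transcription factors they control. The members were Akt1, Akt2, Pdpk1, Inpp5d, Inppl1, Foxo1, Foxo3 and Foxo4, and every probe whose gene name on the array was one of these was taken, with the older names Foxo3a for Foxo3 and Mllt7 for Foxo4. This gave 14 probes for 8 genes, of 41174 probes on the array design, and all 14 were among the 41157 probes tested, which carry 27951 gene names. Pdpk1 had 3 probes, Akt1, Akt2, Foxo1 and Foxo3 had 2 each, and Inpp5d, Inppl1 and Foxo4 had 1 each.

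Class IA PI3K turns the membrane lipid PIP2 into PIP3, and the p85α regulatory subunit, a product of Pik3r1, holds its catalytic subunit at receptors such as KIT. PIP3 brings the kinases PDK1 (Pdpk1) and AKT (Akt1, Akt2) to the membrane, where PDK1 phosphorylates AKT, while the 5-phosphatases SHIP1 (Inpp5d) and SHIP2 (Inppl1) remove a phosphate from PIP3. Active AKT phosphorylates FOXO factors, which then leave the nucleus bound to 14-3-3 proteins, and FOXO factors that stay nuclear switch on genes of cell cycle arrest, cell death and oxidative defence. In mast cells SHIP1 is known as a brake on signaling from KIT and the IgE receptor. All of this control acts on lipids and proteins, whereas the arrays measured RNA.

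Mast cell progenitors (MCps) were grown from bone marrow mononuclear cells of 3 WT mice and 3 mice lacking p85α (p85α-/-), for 7 days in 10 ng/mL of IL-3, sorted by flow for surface KIT plus IgE receptor, and then stimulated with 100 ng/mL of SCF, which binds KIT, for 48 hours. All cultures of both genotypes received IL-3 and SCF, so no unstimulated culture was compared, and the ages and strains of the mice are not given in the sources used here. Because few cells were sorted, cDNA was amplified by a global PCR before labeling. Each of 3 arrays carried 1 WT culture in the green dye Cy3 and 1 p85α-/- culture in the red dye Cy5, without a dye swap, so that dye and genotype cannot be told apart in any value below.

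Levels are given as normalized log2 intensity, and a log2 ratio is p85α-/- over WT on 1 array, so a ratio of 1 is a doubling. Genotypes were compared at 1 probe at a time, and the brightness of different probes was used only to choose a probe for each gene of a list and to sum marker genes. The arrays were not alike in brightness. The median signal was 71.5 to 141.2 in the WT channels and 206.6 to 517.3 in the p85α-/- channels, with the highest in the p85α-/- culture of replicate 2, where 93.8% of spots were well above background against 77.3 to 77.6% in the other p85α-/- cultures. No spot was saturated (0 spots). The 4 probes of Pik3r1 gave mean log2 ratios of -0.58 to 0.59, so they do not settle the genotype, and p85α-/- stands here for the cultures labeled so. In each culture 9 or 10 of 10 mast cell markers were well above background, as were 7 or 8 of 8 neutrophil markers and 7 or 8 of 8 macrophage markers. In such pooled cells, fewer cells of a type and less RNA per cell cannot be told apart.

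For the AKT, phosphatase and FOXO genes, as for most probes, the mean log2 ratio was mostly smaller than its SD over arrays. This held for 9 of 14 member probes and, more often, for all probes (79.7%). No member probe passed an adjusted p under 0.05 in limma's test with Benjamini-Hochberg adjustment (0 of 14, background 0% of all probes, lowest adjusted p 0.908 for members and 0.763 for all). An unadjusted p under 0.05 was reached by 2 member probes, and the same 2 were past a fold change of 1.5. The first was a Pdpk1 probe, lower in p85α-/- cells, and the second a Foxo1 probe, higher in p85α-/- cells. That is 2 of 14 against 4.44% of all probes (1829), with 1 of 14 higher against 2.78% and 1 of 14 lower against 1.66%. At that background fewer than 1 of 14 probes would pass, and the 2 that did were in opposite directions and at adjusted p-values of 0.908. The arrays did not differ in sign for 5 of 14 member probes (background 25.8%), of which 4 were higher on all arrays (background 12.5%) and 1 lower (background 13.3%). Of the 4, Pdpk1 probe 3 and Foxo3 probe 2 were not well above background in any WT culture. The 3 WT and 3 p85α-/- values did not overlap for 2 of 14 member probes (background 10.5%), again those of Pdpk1 and Foxo1.

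**Figure D1:**
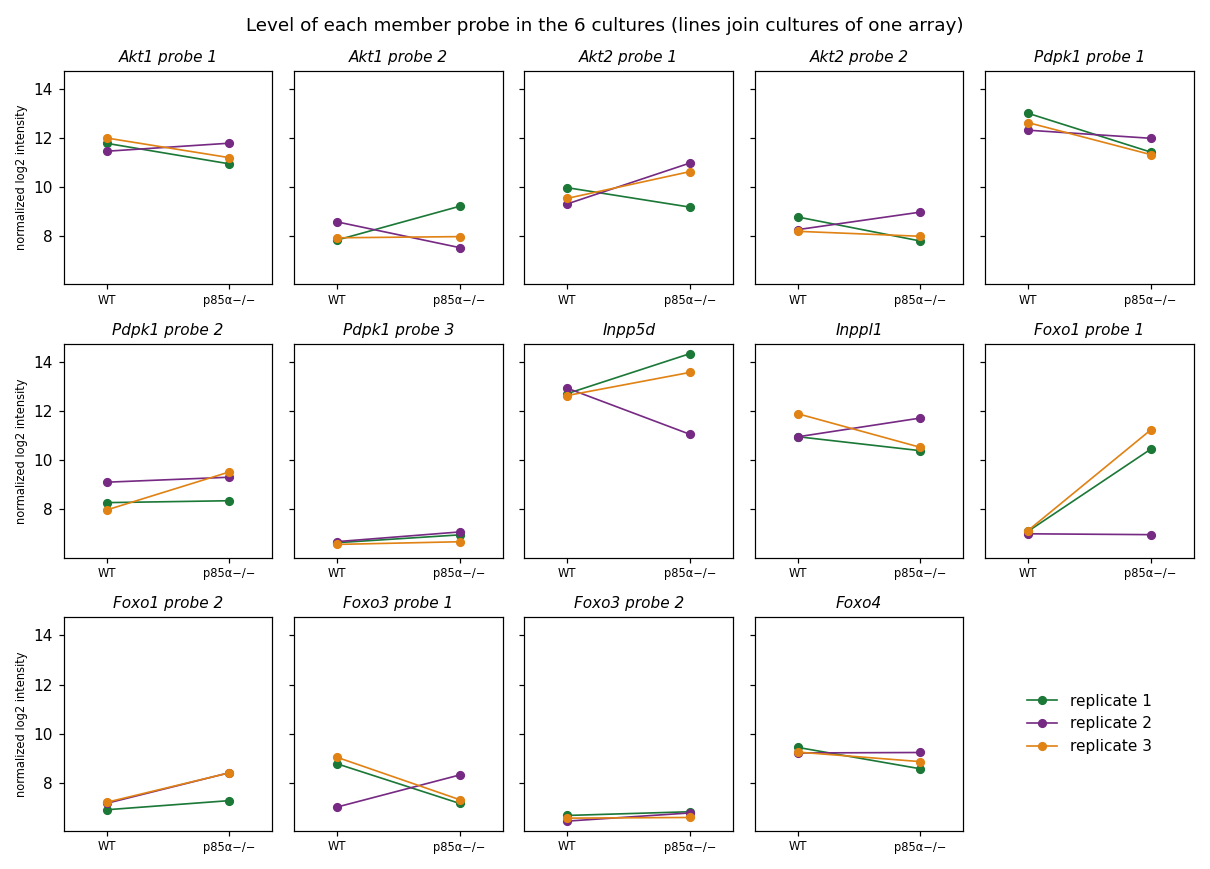
Normalized log2 intensity (vertical axis, same scale in all panels) of the 14 member probes in the 3 WT and 3 p85α-/- cultures, 1 panel per probe. Each line joins the cultures of 1 array. The p85α-/- cultures were more spread than the WT cultures for 13 of 14 probes, and only for Pdpk1 probe 1 and Foxo1 probe 2 did the genotypes not overlap. Among the 13, Pdpk1 probe 3 and Foxo3 probe 2 were not well above background in any WT culture.

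For most member probes the spread lay more among p85α-/- than among WT cultures. The SD over the 3 p85α-/- cultures was above that over the 3 WT cultures for 13 of 14 member probes, compared with 49.6% of all probes. Of the 13, Pdpk1 probe 3 and Foxo3 probe 2 were well above background in 0 of 3 WT cultures. Foxo1 probe 1 was so in 2 of 3 and Foxo1 probe 2 in 1 of 3. The SDs were close for Pdpk1 probe 1 (0.357 against 0.346), Pdpk1 probe 2 (0.625 against 0.587) and Foxo3 probe 2 (0.123 against 0.115). Replicate 2 had a log2 ratio opposite in sign to both other arrays for 8 of 14 member probes, compared with 29.8% of all probes, while replicate 1 stood alone for 1 probe (20.8% of all probes) and replicate 3 for 0 (23.5%). Among the 8, the sign rested on a ratio near 0 for Foxo1 probe 1 and Foxo4 (-0.03 and 0.02 on replicate 2). The same held for Akt1 probe 2 (0.05 on replicate 3). The size of the mean was below its SD for 9 of 14 member probes (79.7% of all probes). The p85α-/- culture of replicate 2 was also the brightest. Without replicate 2, 4 of 14 member probes were past 1.5-fold and an unadjusted p under 0.05, against a background of 7.69% (3165 probes), and they were Foxo1 probe 1, Inpp5d, Foxo3 probe 1 and Pdpk1 probe 1. Of these, Foxo1 probe 1, Inpp5d and Foxo3 probe 1 were among the 8 for which replicate 2 stood alone, so this count is not independent of that observation. Without replicate 1 the count was 2 (background 3.78%) and without replicate 3 it was 0 (background 4.25%). No member probe had an adjusted p under 0.05 with an array left out.

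A probe of Pdpk1, the kinase that phosphorylates AKT, gave the clearest lower value among the member probes. The mean over all 3 Pdpk1 probes was -0.06. PDK1 is needed for AKT to become active, and it also phosphorylates other kinases of the same family. Pdpk1 probe 1 (A_52_P111390) lies on chromosome 17 at 22287682 to 22287741 on the minus strand, as annotated on the array, where the genome build is not stated. It was at 13.02, 12.33 and 12.64 in the WT cultures and 11.44, 12.00 and 11.33 in the p85α-/- cultures. Every p85α-/- culture was below every WT culture. The log2 ratio was -1.07 ± 0.66 (SD, n = 3 arrays), 0.476-fold, with an adjusted p of 0.908 in limma. The direction turned to 0.09 when each array was only centred on its median, without quantile normalization. The probe no longer passed both criteria without replicate 1 (-0.82) or without replicate 3 (-0.96), and did without replicate 2 (-1.44).

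A second Pdpk1 probe had the opposite sign. Probe 2 (A_52_P111397, chromosome 17, 22288087 to 22291722, a span of 3636 bases that must hold an intron) was at 8.28, 9.11 and 7.98 in WT and 8.36, 9.31 and 9.53 in p85α-/- cultures. All 3 ratios were above 0, at 0.08, 0.20 and 1.55 (mean 0.61 ± 0.82, SD), and the genotypes overlapped. With replicate 1, 2 or 3 left out the mean was 0.88, 0.81 and 0.14. Probe 3 (A_52_P619138, chromosome 17, 22260482 to 22260541), which is nearest the 3′ end, was not well above background in any WT culture (0 of 3) and well above it in 2 of 3 p85α-/- cultures, so no fold is given. Of the probes measured in both genotypes, probe 1 was below 0 and probe 2 above 0 on every array, so their signs differed on all 3, and on 1 array they were 2.85 apart on the log2 scale.

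Akt1 is the AKT isoform most tied to growth and survival. Akt1 probe 1 (A_52_P418014) lies on chromosome 12 on the minus strand, between 110187243 and 110196509, a span of 9267 bases that must include an intron. It was at 11.79, 11.47 and 12.01 in WT and 10.95, 11.80 and 11.21 in p85α-/- cultures. Replicates 1 and 3 were lower in the p85α-/- culture and replicate 2 was higher, and the genotypes overlapped. The mean was -0.44 ± 0.66 (SD, n = 3) with a limma adjusted p of 0.908, and it was 0.63 under median centring. With replicate 1, 2 or 3 left out it was -0.24, -0.82 and -0.25.

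Akt1 probe 2 (A_51_P237553, chromosome 12, 110178813 to 110178872), nearer the 3′ end by 8371 bases, was printed on 10 spots of each array, which shows the spread between spots of 1 array. It was at 7.85, 8.59 and 7.94 in WT and 9.22, 7.54 and 7.99 in p85α-/- cultures. The ratios were 1.38, -1.05 and 0.05, so replicate 1 was higher, replicate 2 lower and replicate 3 near equal. On replicate 1 the 10 spots ranged from 1.20 to 1.5 (SD 0.083), and on replicate 2 from -1.19 to -0.95 (SD 0.062). On replicate 3, 9 spots without an outlier flag ranged from -0.01 to 0.12 (SD 0.046). These SDs were close to the medians of 0.087, 0.099 and 0.071 over 245 probes with at least 10 spots. The SD over arrays was 1.22, far above that of the spots. Culture, amplification and hybridization all differed between arrays, and their parts cannot be told apart. Each array gave a narrow value and the arrays did not repeat it (mean 0.13 ± 1.22, SD, adjusted p 0.983 in limma, or -0.50 without replicate 1).

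**Figure D2:**
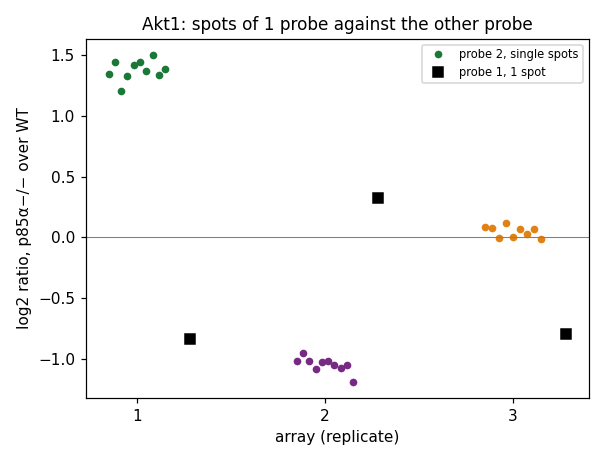
Log2 ratio of p85α-/- over WT (vertical axis) for Akt1 on the 3 arrays (horizontal axis). Round points are the single spots of Akt1 probe 2 (10, 10 and 9 spots) and black squares are Akt1 probe 1. Spots of 1 array lie within 0.30 of each other, the arrays differ by up to 2.43, and both probes disagree in sign on every array.

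Both Akt1 probes were opposite in sign on every array (same sign on 0 of 3) and up to 2.22 apart. The direction of Akt1 thus differed between its probes, although both means were above 0 under median centring (0.63 and 0.44).

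Akt2 is the isoform best known for insulin-driven glucose uptake. Akt2 probe 1 (A_51_P408044) lies on chromosome 7 between 24556257 and 24556397, a span of 141 bases. It was at 9.98, 9.32 and 9.55 in WT and 9.19, 10.99 and 10.64 in p85α-/- cultures. Here replicate 1 was lower in p85α-/- and replicates 2 and 3 were higher, and the mean was 0.65 ± 1.29 (SD, n = 3, adjusted p 0.908 in limma). Akt2 probe 2 (A_52_P2977, chromosome 7, 24558143 to 24558202) was at 8.79, 8.27 and 8.20 in WT and 7.81, 8.99 and 8.0 in p85α-/- cultures. It shared the sign of probe 1 on 2 of 3 arrays, and its mean was -0.16 ± 0.85 (SD), or 0.29 under median centring. The mean of probe 1 was 1.38 without replicate 1 and 1.36 under median centring, both past both criteria but without an adjusted p under 0.05. It was 0.15 without replicate 2 and 0.44 without replicate 3. Probe 2 was 0.26 without replicate 1.

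**Figure D3:**
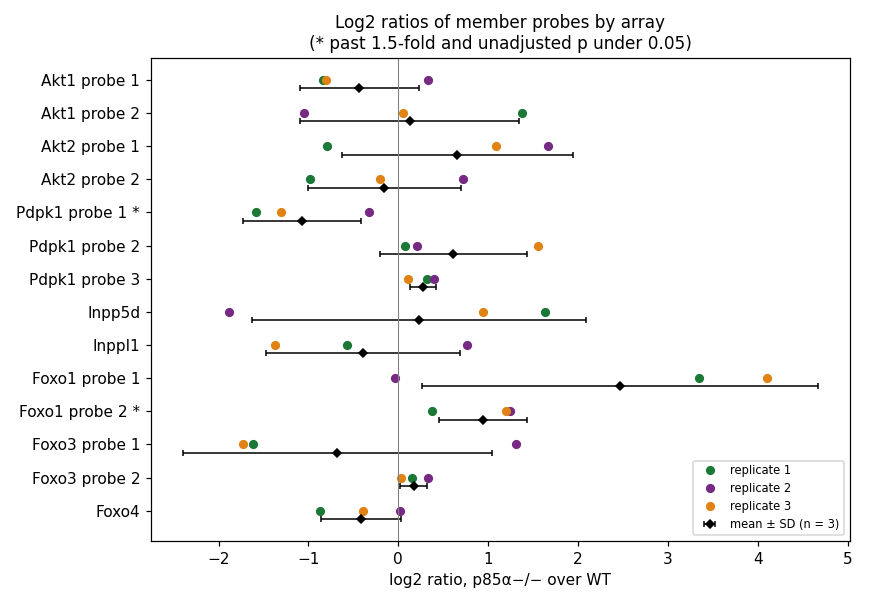
Log2 ratio of p85α-/- over WT (horizontal axis) for the 14 member probes (rows). Coloured points are the 3 arrays, diamonds with bars are the mean ± SD, and an asterisk marks the 2 probes that passed both criteria. Replicate 2 lies on the other side of 0 from both other arrays for 8 of 14 probes. For Foxo1 probe 1 (-0.03), Foxo4 (0.02) and Akt1 probe 2 (0.05) this rests on 1 ratio near 0.

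SHIP1, the 5-phosphatase of blood cells, had the largest contrast between replicates among the enzymes. Inpp5d (A_51_P337125, chromosome 1, 87621471 to 87621530) was at 12.73, 12.94 and 12.65 in WT cultures, within 0.30 of each other on the log2 scale. It was at 14.35, 11.06 and 13.59 in p85α-/- cultures. The p85α-/- cultures of replicates 1 and 3 were above every WT culture and that of replicate 2 was below every one. The mean was 0.23 ± 1.86 (SD, n = 3, adjusted p 0.977 in limma). Without replicate 2 it was 1.29, past both criteria but with a limma adjusted p of 0.635, whereas without replicate 1 or replicate 3 it was -0.47 or -0.13. Under median centring it was 1.55.

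SHIP2, the broadly expressed relative, had the opposite sign to SHIP1 on each array. Inppl1 (A_51_P142334, chromosome 7, 97869075 to 97869134, minus strand) was at 10.97, 10.96 and 11.90 in WT and 10.40, 11.73 and 10.53 in p85α-/- cultures. It was lower in the p85α-/- culture of replicates 1 and 3 and higher in that of replicate 2. The mean of -0.39 ± 1.08 (SD, n = 3, adjusted p 0.925 in limma) turned to 0.55 under median centring and to 0.10 without replicate 3.

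The highest ratios among the members were those of Foxo1, a FOXO factor best known from lymphocytes, liver and muscle. Foxo1 probe 1 (A_51_P138044, chromosome 3, 52472787 to 52472846) was at 7.11, 7.01 and 7.14 in WT cultures, well above background on 2 of 3 arrays. It was at 10.45, 6.97 and 11.24 in p85α-/- cultures. Replicates 1 and 3 were far above every WT culture, and replicate 2 was at the WT level. The mean was 2.47 ± 2.20 (SD, n = 3), 5.54-fold, with a limma adjusted p of 0.908, and without replicate 2 it was 3.72 with an adjusted p of 0.592. Without replicate 1 it was 2.03 and without replicate 3 it was 1.66, neither past both criteria.

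Foxo1 probe 2 (A_52_P453884, chromosome 3, 52475893 to 52475952), 3047 bases downstream, was at 6.89, 7.16 and 7.20 in WT cultures, well above background on 1 of 3 arrays. It was at 7.27, 8.40 and 8.40 in p85α-/- cultures. All p85α-/- cultures were above all WT cultures, although that of replicate 1 exceeded the highest WT culture by little. The mean was 0.94 ± 0.49 (SD, n = 3), with a limma adjusted p of 0.908, a difference in which only 1 of 3 WT cultures was well above background. Of the 14 alternative settings, 5 left the means of both Foxo1 probes as they were. Over the others, leaving aside the authors' table with its misplaced values, the means were 1.66 to 4.00 for probe 1 and 0.79 to 2.09 for probe 2. They passed both criteria in 3 and 6 of the 14 settings, and no adjusted p was below 0.592 and 0.654. The probes were furthest apart on replicate 1, by 2.97. On replicate 2, probe 2 was at 1.25 and probe 1 at -0.03. Probe 2 did not pass both criteria without replicate 2 (0.79) or without replicate 3 (0.81).

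Foxo3, a widely expressed FOXO factor linked to growth factor withdrawal, showed the reverse arrangement. Foxo3 probe 1 (A_51_P145507, chromosome 10, 41996607 to 41996666, minus strand) was at 8.77, 7.00 and 9.03 in WT, well above background on 2 of 3 arrays, and at 7.15, 8.31 and 7.31 in p85α-/- cultures. It was lower in p85α-/- on replicates 1 and 3 and higher on replicate 2, with the WT culture of replicate 2 below the other WT cultures and its p85α-/- culture above the other p85α-/- cultures. The mean was -0.68 ± 1.72 (SD, n = 3, adjusted p 0.916 in limma). It was -0.21 without replicate 1, -1.67 without replicate 2 (past both criteria, limma adjusted p 0.592) and -0.15 without replicate 3. Foxo3 probe 2 (A_52_P373852, chromosome 10, 41991402 to 41991461) lies 5146 bases further 3′. It was not well above background in any WT culture (0 of 3) and well above it in 1 of 3 p85α-/- cultures, so no fold is given.

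Foxo4, the FOXO factor encoded on the X chromosome (A_51_P200875, 96586232 to 96586291), was at 9.44, 9.21 and 9.25 in WT and 8.56, 9.23 and 8.86 in p85α-/- cultures. Replicates 1 and 3 were lower in the p85α-/- culture and replicate 2 was equal within 0.02. Its mean of -0.41 ± 0.45 (SD, n = 3, adjusted p 0.908 in limma) was 0.19 under median centring, -0.19 without replicate 1 and -0.63 without replicate 2.

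The signs of Inpp5d on the arrays were shared by 2 of 8 marker genes of neutrophils, Mpo and Elane, beside 29.8% of all probes for which replicate 2 stood alone in either direction. By ratio alone, 6 of 8 were lower on replicate 2 than on replicates 1 and 3, with no share of all probes to set beside it. The summed intensity of the 8 neutrophil markers was 10115, 19130 and 8956 in the WT cultures and 69841, 3161 and 228141 in the p85α-/- cultures of replicates 1, 2 and 3. It was thus above WT on replicates 1 and 3 and below WT on replicate 2, with 7, 4 and 5 of the 8 genes above 0. Mpo, a granule peroxidase, had log2 ratios of 2.90, -3.37 and 5.39. Elane, neutrophil elastase, had 3.54, -1.77 and 4.90. S100a8 and S100a9, calcium-binding proteins of the neutrophil cytosol, were above 0 on every array, at 0.39 and 0.49 on replicate 2. Ltf, which marks later neutrophil stages, was at -0.31, 0.17 and -1.51. Camp, an antimicrobial peptide, was at 1.33, 0.23 and 2.60. Prtn3, a granule protease, was at 0.42, -0.37 and -1.58, and Ngp, a granule protein, at 0.14, -0.28 and -0.19. All 8 were well above background in every culture except the WT culture of replicate 2, where 7 were, and their part in the ratios of Inpp5d and the FOXO genes was not tested. The summed intensity of 4 basophil markers was also above WT on replicates 1 and 3 and below it on replicate 2, at 3605, 9600 and 1630 in WT and 5619, 7039 and 5911 in p85α-/- cultures. That of 8 macrophage markers was above WT on replicate 1 alone, at 3656, 8167 and 5472 in WT and 5048, 3915 and 4044 in p85α-/- cultures. The mast cell markers differed from both, with 8 of 10 above 0 on each array and summed intensities of 28183 to 65752 in WT and 88909 to 155107 in p85α-/- cultures.

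**Figure D4:**
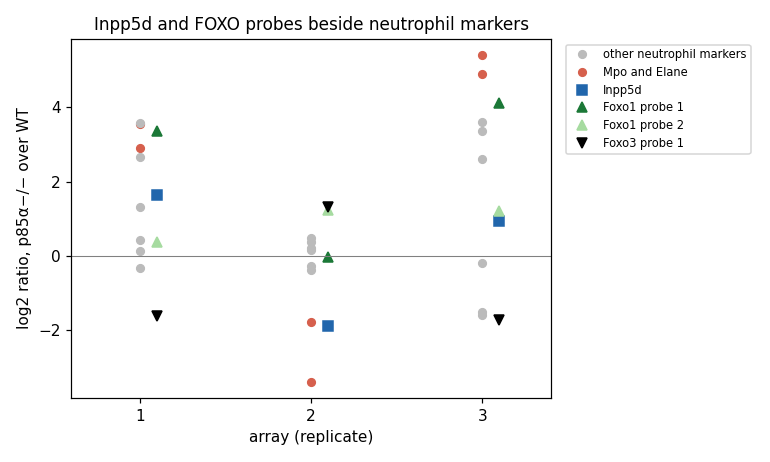
Log2 ratio of p85α-/- over WT (vertical axis) on each array (horizontal axis) for the 8 neutrophil markers (round points, Mpo and Elane in red), Inpp5d (squares), both Foxo1 probes and Foxo3 probe 1 (triangles). On replicate 2, Mpo (-3.37), Elane (-1.77) and Inpp5d (-1.88) lie below 0 and Foxo3 probe 1 (1.31) above it, and on replicates 1 and 3 each has the opposite sign. The other 6 markers do not share the signs of Inpp5d, although 6 of the 8 markers are lower on replicate 2 than on replicates 1 and 3.

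The genes around the members were read from 6 lists, taking for each gene its brightest probe and setting the counts beside all probes, of which 44.8% were above 0 with a median of -0.05. Among regulators of AKT, 15 of 16 genes were found, 7 above and 8 below 0 (median -0.03), with 1 gene higher and 1 lower past both criteria, beside 2.78% and 1.66% of all probes. Ppp2cb, a catalytic subunit of the phosphatase PP2A, which removes phosphate from AKT, was at 8.27, 8.19 and 8.49 in WT and 8.98, 8.99 and 9.03 in p85α-/- cultures. This gave 0.68 ± 0.13 (SD, n = 3, limma adjusted p 0.908), and the genotypes did not overlap. A dimmer Ppp2cb probe had ratios of -0.05, 0.43 and 0.10 (mean 0.16 ± 0.25, SD), and there the genotypes overlapped. Tcl1, a coactivator that binds AKT, was at 11.09, 12.04 and 12.09 in WT and 10.53, 11.40 and 10.90 in p85α-/- cultures, a mean of -0.80 ± 0.34 (SD, limma adjusted p 0.908) that was 0.17 under median centring. The lowest of the list was Mapkap1, the SIN1 subunit of mTORC2, with -0.83 ± 1.13 (SD), or -0.37 without replicate 1 and -1.47, past both criteria, without replicate 3. Ppp2cb and Tcl1 passed both criteria only with all 3 arrays, and with 1 array left out they ranged from 0.63 to 0.76 and from -0.92 to -0.60.

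The 14 AKT substrates were all found, with 5 above and 9 below 0 (median -0.43), and none (0) passed both criteria. Their median was 0.20 under median centring and -0.21 without replicate 2, when 3 passed (1 higher and 2 lower), beside 7.69% of all probes. The highest was Cdkn1a, the cell cycle inhibitor p21, at 0.80, 2.58 and 0.04 on the arrays (mean 1.14 ± 1.30, SD). It was 0.42 without replicate 2 and 1.99, past both criteria, under median centring. The lowest was Akt1s1, the mTORC1 component PRAS40, at -2.31, 0.68 and -1.80 (mean -1.14 ± 1.60, SD), or 0.09 under median centring. It was -0.56 without replicate 1 and -2.06, past both criteria, without replicate 2. Both means were smaller than their SD.

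Among other phosphoinositide phosphatases 13 of 14 genes were found, with 9 above and 4 below 0 (median 0.02), and 0 passed both criteria. Inpp5a, which acts on soluble inositol phosphates, rested on 1 array, with -0.02, -0.22 and 3.02 (mean 0.93 ± 1.82, SD, or -0.12 without replicate 3). Mtm1, a 3-phosphatase of endosomal lipids, was at -1.57, 0.39 and -1.11 (mean -0.76 ± 1.03, SD), or 0.63 under median centring and -1.34, past both criteria, without replicate 2. Of the 7 genes for adaptors and receptors that work with SHIP1, 3 were above and 4 below 0 (median -0.11), and 0 passed. Shc1, an adaptor that binds SHIP1, had 4.33, 0.93 and -0.08 (mean 1.72 ± 2.31, SD). Its mean was 0.42, 2.12 and 2.63 without replicate 1, 2 or 3. Dok1, a docking protein of the same complexes, had -0.92, 0.46 and -0.92 (mean -0.46 ± 0.80, SD), or 0.50 under median centring and -0.92, past both criteria, without replicate 2.

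FOXO partners and regulators were found for 14 of 14 genes, with 9 above and 5 below 0 (median 0.09), 1 of them higher past both criteria and 0 lower, beside the same 2.78% and 1.66% of all probes. This was Ywhah, the eta isoform of the 14-3-3 proteins that hold phosphorylated FOXO in the cytoplasm. It was at 13.00, 10.65 and 12.45 in WT and 14.02, 11.46 and 13.76 in p85α-/- cultures. Within each array the p85α-/- culture was higher, by 1.04 ± 0.25 (SD, n = 3, limma adjusted p 0.908), while the genotypes overlapped across arrays. The epsilon isoform Ywhae had ratios of -3.52, -3.50 and 4.07 (mean -0.98 ± 4.38, SD), so that its direction turned with the array (-3.51 without replicate 3, 0.29 and 0.28 without replicates 1 and 2). Ywhah did not pass without replicate 1 (1.06) or replicate 3 (0.91). Of the 3 probes of Ywhae, 2 had a mean above 0.

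FOXO target genes, the longest list, had 3 genes higher and 1 lower past both criteria of 18 found of 20, beside 2.78% and 1.66% of all probes, with 9 above and 9 below 0 (median 0.06). Ccnd2, the G1 cyclin D2, which FOXO factors are known to repress, was at 12.59, 8.60 and 12.57 in WT and 14.72, 13.25 and 14.64 in p85α-/- cultures. The mean was 2.95 ± 1.47 (SD, n = 3, limma adjusted p 0.908), 7.72-fold, with replicate 2 furthest apart, and its 3 probes had means of 0.53 to 2.95, of which 1 passed. Gadd45a, a stress and DNA damage gene, was at 7.46, 7.97 and 8.15 in WT and 8.97, 9.30 and 11.26 in p85α-/- cultures (mean 1.99 ± 0.98, SD, limma adjusted p 0.908). Every p85α-/- culture was above every WT culture for both genes.

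Sod2, the mitochondrial superoxide dismutase, was at 9.99, 9.23 and 9.52 in WT and 10.78, 11.43 and 11.81 in p85α-/- cultures, also without overlap (mean 1.76 ± 0.84, SD, limma adjusted p 0.908). Fbxo32, a ubiquitin ligase known from muscle atrophy, was the lower one, at 9.58, 10.04 and 9.89 in WT and 9.14, 9.05 and 9.08 in p85α-/- cultures (mean -0.75 ± 0.28, SD, limma adjusted p 0.908). Its value was -0.06 under median centring. With any 1 array left out Fbxo32 no longer passed (-0.90 to -0.62), and Sod2 did not pass without replicate 2 (1.54) or replicate 3 (1.49), whereas Ccnd2 and Gadd45a passed in each case. Klf2, a transcription factor of quiescent lymphocytes, was lowest at -1.01 ± 1.01 (SD), or 0.18 under median centring, and its second probe had a mean of 0.61. The first was -0.56 without replicate 1 and -1.55, past both criteria, without replicate 2. The genes past the criteria thus included 2 that FOXO factors are known to activate, Gadd45a and Sod2, and 1 that they repress, Ccnd2, all higher, beside an activated one, Fbxo32, lower.

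**Figure D5:**
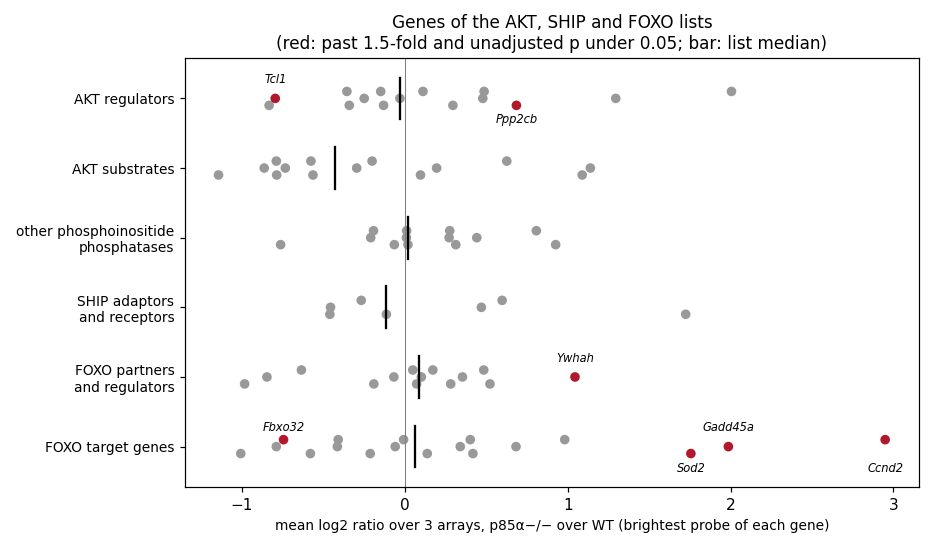
Mean log2 ratio over 3 arrays, p85α-/- over WT (horizontal axis), of the brightest probe of each gene in 6 lists (rows). Points are genes, red for those past 1.5-fold and an unadjusted p under 0.05, and the vertical bar is the list's median, from -0.43 for AKT substrates to 0.09 for FOXO partners. Of the 18 FOXO target genes, the longest list, 4 are red, 3 higher and 1 lower, and over all probes 4.44% were past these criteria.

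FOXO factors bind a core heptamer, and its letters were looked for in promoter windows of RefSeq genes (GRCm38.p6), from 250 bases before to 50 after each start. The motif was GTAAACA, or TGTTTAC on the other strand, counted once per window. It stood in 1199 of 32851 windows (3.65%), or in 1095 of 27025 genes (4.05%). Of the 8 members 7 had a window in the table, and 1 of these 7, Akt1, held the motif. Of 15 FOXO target genes with a window, 4 held it (26.7%), and these were Bcl2l11, Txnip, Bbc3 and Sesn1. The 4 printed below show the motif in capitals within its surroundings, 121 to 227 bases before a start. The match in Sesn1 lies 22 bases after its start and is not printed, since only stretches before a start are shown.
Akt1, chr12:112674992-112675092, minus strand: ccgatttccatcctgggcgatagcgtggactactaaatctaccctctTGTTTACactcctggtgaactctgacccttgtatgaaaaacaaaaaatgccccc
Bcl2l11, chr2:128125788-128125864, plus strand: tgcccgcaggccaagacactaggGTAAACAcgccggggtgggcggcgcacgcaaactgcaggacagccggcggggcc
Txnip, chr3:96557789-96557889, plus strand: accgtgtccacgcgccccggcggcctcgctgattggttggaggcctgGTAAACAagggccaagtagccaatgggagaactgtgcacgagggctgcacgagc
Bbc3, chr7:16310047-16310147, plus strand: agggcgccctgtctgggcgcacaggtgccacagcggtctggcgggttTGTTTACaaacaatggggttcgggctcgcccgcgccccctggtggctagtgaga

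A match of letters is a description and not a binding site. The genes with the motif were named for it after their values were known. Bcl2l11, the death protein BIM, had log2 ratios of 1.75, -2.15 and 1.65 (mean 0.42 ± 2.22, SD). Txnip, which restrains thioredoxin and glucose uptake, had -1.25, 2.34 and -2.34 (mean -0.41 ± 2.45, SD). Bcl2l11 thus had the signs of Inpp5d on each array, and the brightest probe of Txnip the signs of Foxo3 probe 1. Sesn1, a stress-induced sestrin, had -0.98, -0.43 and 1.22. Bbc3, the death protein PUMA, was above 0 on all arrays with 0.78, 0.27 and 1.90 (mean 0.98 ± 0.83, SD). None of the genes with the motif (0 of 4) was past both criteria at its brightest probe, while a dimmer Txnip probe was. That probe had 2.79, 0.95 and 2.11, above 0 on every array unlike the brightest one, and only 1 of 3 WT cultures was well above background there. The motif was thus present in genes whose ratios ran in opposite directions on the same array.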

How the data were processed

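RNA of SCF-stimulated MCps from 3 WT and 3 p85α-/- mice was measured on 3 arrays with 2 dyes (n = 3 cultures per genotype). The deposited intensity values are the mean spot brightness and the median local background from Agilent Feature Extraction 9.5.1.1, with processed intensities and a log10 ratio of red over green that the software derived from them. The authors' deposited table gives a log10 ratio for each probe on each array, misplaced between probes for most of replicates 2 and 3, and was used only as an alternative. The study's methods name quantile normalization across chips.

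From the scanner values, normexp (offset 50) and quantile normalization of the 6 channels were applied to log2 values with limma 3.58.1 in R 4.3.3. Control and outlier spots were dropped and spots of a probe averaged. The ratio within each array, which pairs its cultures by design, was fitted with an intercept and tested with limma (eBayes, Benjamini-Hochberg over 41157 probes). A probe was said to pass both criteria at 1.5-fold and an unadjusted p under 0.05, the thresholds of the study. The brightest probe stood for a gene in the lists. Promoter windows came from a RefSeq table of GRCm38.p6.

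The members and lists were chosen with earlier results of these data known. Besides the members, genes were named where they passed both criteria or were highest or lowest of their list among genes well above background on all arrays. An exact test cannot go below 0.25 for 3 pairs or 0.1 for 3 against 3. The procedure was tested on simulated data. The 3 arrays shared 1 slide and 1 scan day. The number of arrays limits the precision. There were 0 per-sample columns without a matching sample. Probe sequences were not used here.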

Additional observations from a re-analysis of the deposited data

How the results depend on the processing

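With 14 alternatives, 0 member probes and 0 of all probes had an adjusted p under 0.05. The count of member probes past both criteria, 2, was 1 with loess and Aquantile, without background subtraction and with the methods' unpaired t-test. It was also 1 with median centring (Akt2 probe 1) and with dim probes left out (Foxo1 probe 1), where neither of the 2 passed. It was 3 with the software's processed signals (both Foxo1 probes and Pdpk1 probe 3) and 2 with its log ratio (Foxo1 probe 2 and Pdpk1 probe 3), without the lower Pdpk1 call, and Pdpk1 probe 3 was not well above background in any WT culture. It was 0 in the authors' table and with the methods' paired t-test, and 0 to 4 with 1 replicate left out (0 without replicate 3, 4 without replicate 2). Over all probes 1829 became 1125 and 819 in those t-tests and 1555 to 3165 with 1 replicate left out (3165 without replicate 2). limma with no replicate block, that is without the pairing by array, gave 1809. With median centring the all-probe median shifted by 0.14, to 0.09, the list medians were 0.20 to 0.68, and 7 of 14 member probes changed sign. With 1 replicate left out the median of the SHIP adaptors was -0.22 to 0.25, of the AKT regulators -0.02 to 0.17 and of the FOXO partners -0.07 to 0.40. The share of higher among all calls was 62.6%, and 91.4% with median centring. Without replicate 2 that share was 47.5%, and with the software's processed signals and the authors' table it was 72.3% and 58.2%.

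Median centring reversed Akt1 (0.63), Pdpk1 (0.088), Inppl1 (0.55), Foxo4 (0.19), Tcl1 (0.17), Akt1s1 (0.093), Klf2 (0.18), Dok1 (0.50) and Mtm1 (0.63). The authors' table, whose misplaced values say little of a gene, gave the opposite sign for Akt2 (-0.006), Pdpk1 (0.17), Foxo4 (0.014) and Cdkn1a (-0.73). With a replicate left out, Inpp5d was between -0.47 and 1.29 (-0.13 without replicate 3), Inppl1 between -0.97 and 0.10, Ywhae between -3.51 and 0.29, and Inpp5a between -0.12 and 1.5, each reversed without at least 1 replicate. Pdpk1 lost its place past both criteria without a change of direction in 7 settings, Ppp2cb in 8, Tcl1 in 11, Ywhah in 7, Fbxo32 in 10, and Ccnd2, Gadd45a and Sod2 in 4 each. The causes were not tested. The dim probes of WT channels limit what Foxo1 and Foxo3 can show, since 0 to 2 of 3 WT cultures were well above background there.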
